A study of Capra hircus with 20 samples.

Results

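The miR-200 family was followed after birth in hypothalamus from Jining grey goats that were 1, 60, 120 or 180 days old. This breed from China reaches puberty early. The family's members were the rows of the miRNA table named chi-miR-200b, chi-miR-200a, chi-miR-429, chi-miR-200c and chi-miR-141, where chi stands for the goat, Capra hircus; the prefix is left out from here on. These were 5 of 683 miRNAs in the table, each listed once and without an arm suffix, and 4 of the 5 were among the 414 miRNAs abundant enough to be tested. Small RNA was sequenced from hypothalamic tissue, with 5 biological replicates per age and 20 libraries in all, and all goats were housed and managed alike and fed freely; the labels name no treatment. Neither the sex of the goats nor whether tissue was pooled is stated in the sources used here.

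The miR-200 family is best known from epithelia, where its members repress the transcription factors ZEB1 and ZEB2 and thereby help to keep cells in the epithelial state. In mice, miR-200 miRNAs and miR-155 act in the neurons that release gonadotropin-releasing hormone (GnRH), the hormone that drives puberty. There they relieve the GnRH gene of its repressors ZEB1 and CEBPB in young animals, and loss of miRNA processing in these neurons leaves mice infertile. In the mouse pituitary miR-200b and miR-429 are needed for ovulation. The family falls into 2 groups by its seed, the stretch that pairs with target mRNAs: miR-200b, miR-200c and miR-429 share one, and miR-200a and miR-141 share another that differs at a single base. It is also transcribed from 2 gene clusters. In the RefSeq annotation of the goat assembly ARS1.2, which lists all 5 genes, MIR429, MIR200A and MIR200B follow one another between TTLL10 and C16H1orf159, while MIR141 and MIR200C lie side by side between PHB2 and PTPN6.

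Levels are given as RPM, read counts scaled so that every library has the same miRNA total, and were not divided by length, which differs little between mature miRNAs. The libraries held 4017937 to 8324880 miRNA reads each, so that 3 reads, the level that a count of 0 still allows, corresponded to between 0.360 and 0.747 RPM. The neural miR-9-5p was abundant in all libraries, at 62610 to 318675 RPM, which bears out neural tissue but not the brain region. Replicate 2 of day 1 stood apart: it was the shallowest library, it had the lowest median Spearman correlation to the rest, at 0.873, and it held the highest value of 35.5% of the 414 tested miRNAs. Most results that rest on it are given with and without it. Shares of variance between ages and correlations after subtracting age means are given only with it. The count tools edgeR and DESeq2 were also run only with it. GnRH neurons are a small population in this tissue, so the values describe the hypothalamus as a whole and give none for these neurons alone. In such bulk samples, fewer cells of a type and less RNA per cell cannot be told apart.

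No member of the family passed the test in any comparison of ages. miR-200b was the most abundant member at every age and varied more between libraries of one age than between ages, with levels from 12.9 to 777 RPM among newborns alone. The 5 members summed to 407 ± 580 RPM on day 1 (SD, n = 5 at each age), then to 239 ± 103 RPM at 60 days, 282 ± 293 RPM at 120 days and 112 ± 37.0 RPM at 180 days. The newborn sum without replicate 2 of day 1 was 151 ± 109 RPM (SD, n = 4), so the high newborn mean rests on that library. Without replicate 5 of day 120 the sum at that age was 154 ± 70.5 RPM (SD, n = 4).

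miR-200b, first of the seed group that it shares with miR-200c and miR-429, measured 214, 777, 87.9, 12.9 and 92.7 RPM in replicates 1 to 5 of day 1. On day 60 it measured 75.8, 99.7, 218, 267 and 227 RPM, on day 120 41.6, 111, 176, 118 and 639 RPM, and on day 180 62.5, 63.0, 71.5, 117 and 63.1 RPM. The day-1 libraries enclosed all later values, the ages overlapped, and the narrowest spread was that of day 180, where 4 of 5 libraries lay between 62.5 and 71.5 RPM. These levels rested on 106 to 5122 reads per library, so counting error was small beside the differences between libraries. Goat, dissection and library preparation cannot be told apart in those differences.

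miR-200a, its neighbour in the gene cluster and the main member of the other seed group, measured 55.0, 147, 51.3, 2.32 and 42.4 RPM on day 1. It measured 19.5, 25.4, 40.0, 47.2 and 62.1 RPM on day 60, 18.0, 21.4, 44.9, 25.1 and 124 RPM on day 120, and 29.5, 20.3, 10.8, 46.1 and 22.5 RPM on day 180. As for miR-200b, replicate 2 of day 1 and replicate 5 of day 120 were the highest and replicate 4 of day 1 the lowest. Its mean was 59.6 ± 53.1 RPM on day 1 (SD, n = 5 at each age), followed by 38.8 ± 17.1 at 60 days, 46.7 ± 44.5 at 120 days and 25.9 ± 13.2 RPM at 180 days. The day-1 mean without its replicate 2 was 37.8 ± 24.2 RPM (SD, n = 4), and without replicate 5 of day 120 the mean at that age was 27.3 ± 12.1 RPM (SD, n = 4).

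miR-429, the third gene of that cluster, was scarce, with 6.33, 8.46, 4.91, 0.244 and 0.966 RPM on day 1 and 2.81, 2.08, 1.61, 2.88 and 5.91 RPM on day 60. It measured 1.10, 3.12, 4.64, 1.60 and 12.0 RPM on day 120 and 1.72, 1.72, 0.708, 2.55 and 1.37 RPM on day 180. The ages overlapped, the highest library was replicate 5 of day 120, and the lowest was again replicate 4 of day 1, where it had 2 reads. Across the other libraries it had 4 to 96 reads.

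miR-200c, from the other gene cluster but with the seed of miR-200b, measured 11.6, 498, 11.1, 3.53 and 7.60 RPM on day 1. On day 60 it measured 15.7, 17.4, 15.2, 28.8 and 15.6 RPM, on day 120 6.85, 16.1, 14.2, 10.4 and 18.7 RPM, and on day 180 6.31, 10.7, 9.38, 12.3 and 5.34 RPM. Replicate 2 of day 1, with 2000 reads, lay far above the other 19 libraries, of which the highest held 28.8 RPM. Leaving that library out, the 4 other newborns averaged 8.46 ± 3.73 RPM, against 106 ± 219 RPM with it. The day-180 libraries, at 5.34 to 12.3 RPM, all lay below the day-60 libraries, at 15.2 to 28.8 RPM. Such a gap between these ages was found for 1.93% of the 414 tested miRNAs. With all 20 libraries no other pair of ages was free of overlap for any member. Without replicate 2 of day 1, miR-200c on day 60, at 15.2 to 28.8 RPM, also lay above the 4 remaining day-1 libraries, at 3.53 to 11.6 RPM, where 4.83% of all tested miRNAs showed no overlap in either direction. Over all tested miRNAs and all 20 libraries the share without overlap was 3.14% for day 60 against day 1, 0.966% for day 120 against day 60, 0.725% for day 180 against day 120, 3.62% for day 180 against day 1 and 7.25% for day 120 against day 1.

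miR-141, the cluster partner of miR-200c with the seed of miR-200a, was present at 1 to 8 reads in each of the 20 libraries and at more than 3 reads in 5 of them. It ranged from 0.121 to 1.24 RPM and reached 1 RPM in 2 libraries, replicate 2 of day 1 and replicate 5 of day 60. It was too scarce to be tested, and a difference between ages was not detectable at this depth. In the library with 498 RPM of miR-200c it had 5 reads.

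**Figure D1:**
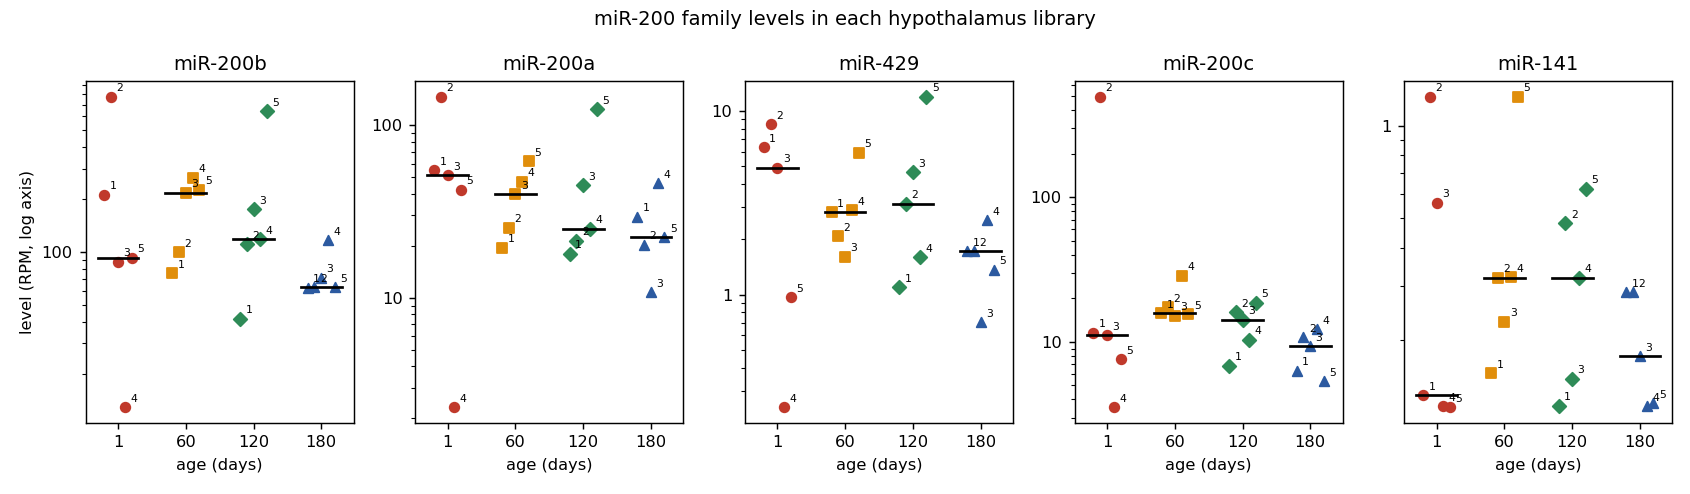
Level of each miR-200 family member in RPM (log axis) in the 20 hypothalamus libraries, by age in days. Each point is a library, with its replicate number beside it, and each bar is the median of an age; miR-200b spans 12.9 to 777 RPM among the day-1 libraries, and replicate 2 of day 1 stands apart for miR-200c.

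The members kept one order in nearly all libraries. miR-200b exceeded miR-200a in 20 of 20 libraries, miR-200a exceeded miR-200c in 18, miR-200c exceeded miR-429 in 20 and miR-429 exceeded miR-141 in 20. The 2 exceptions were replicates 2 and 4 of day 1. miR-200b made up 54.3% to 80.4% of the family's reads and was 3.99 ± 1.43 times as abundant as miR-200a (SD, n = 20). The seed group of miR-200a and miR-141 held 21.0 ± 10.1% of the family's reads on day 1 (SD, n = 5 at each age), 16.7 ± 2.63% at 60 days, 18.4 ± 4.95% at 120 days and 22.7 ± 6.75% at 180 days, with ranges that overlapped. Levels of different miRNAs also depend on how well each is captured in the library, and a read may match more than 1 member where sequences are nearly identical, which leaves the proportions uncertain.

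The first comparison asked whether any member differed over the 4 ages. With limma's F test adjusted by Benjamini-Hochberg over all 414 tested miRNAs, 0 of 4 members passed at 0.05, where 1.93% of all tested miRNAs did. The adjusted p was 0.747 for miR-200b, 0.931 for miR-200a, 0.746 for miR-429 and 0.767 for miR-200c. On the recovered reads edgeR called 0 of 4 members over the ages, against 9.42% of all tested miRNAs, and DESeq2 0 of 3, against 21.7%. DESeq2 gave no p for miR-200c here or in any comparison below, so its counts cover miR-200b, miR-200a and miR-429. At an unadjusted p under 0.05 limma had 0 members, edgeR 1, which was miR-200c, and DESeq2 0. Without replicate 2 of day 1, limma's F test gave miR-200c an unadjusted p of 0.0404 and an adjusted p of 0.331. In that fit 14.7% of all tested miRNAs had an unadjusted p under 0.05. The adjusted p was then 0.511 for miR-200b, 0.891 for miR-200a and 0.702 for miR-429, so again no member passed. Differences between ages made up 11.2% of the variance of miR-200b across libraries on the log2(RPM + 1) scale, 4.78% of that of miR-200a, 12.7% of that of miR-429 and 10.6% of that of miR-200c. The median over all tested miRNAs was 18.0%. Fitting 4 age means to 20 libraries takes up some variance even where age has no effect. These shares were not corrected for that and are no measure of variance due to age. They include replicate 2 of day 1 and were not computed without it. Leaving that library out lowered the SD of miR-200c within ages from 1.39 to 0.51 log2 units. Its share of 10.6% therefore cannot be read apart from that library.

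Day 60 against day 1 gave no call for the family. miR-200b averaged 178 ± 84.6 RPM on day 60 and 237 ± 311 RPM on day 1 (SD, n = 5 each), yet its log2 fold change was 0.49 (SE 0.75); the medians were 218 RPM on day 60 and 92.7 RPM on day 1. The 95% interval of the fold on this scale ran from 0.480 to 4.08. miR-200a had a log2 fold change of 0.02 (SE 0.72), miR-429 of -0.06 (SE 0.53) and miR-200c of -0.05 (SE 0.78). By limma 0 of 4 members were called, against 3.86% of all tested miRNAs, and 0 of 4 had an unadjusted p under 0.05, against 21.0%. The smallest limma adjusted p among the 4 was 0.758. edgeR called 0 of 4 members, against 13.8% of all, with miR-200c alone at an unadjusted p under 0.05, and DESeq2 called 0 of 3, against 20.8%, with none at that level.

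For miR-200c the size of the change depended on the method. On day 60 against day 1 its log2 fold change was -1.64 by edgeR (adjusted p = 0.181) and -1.58 by DESeq2, which gave no p, beside -0.05 by limma. For day 120 against day 1 it was -2.23 by edgeR (adjusted p = 0.0683) and -2.22 by DESeq2, beside -0.54 by limma.

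All of these values include the day-1 library with 498 RPM. Without it, miR-200c averaged 18.5 ± 5.80 RPM on day 60 (SD, n = 5), against 8.46 ± 3.73 RPM in the 4 remaining day-1 libraries (SD, n = 4), a log2 fold change of 1.11 (SE 0.42, limma adjusted p = 0.131). In the same fit miR-200b had a log2 fold change of 1.18 (SE 0.69, adjusted p = 0.332). Neither passed, and the direction for miR-200c turned over with that one library. Its unadjusted limma p without that library was 0.0134, where 22.9% of all tested miRNAs had one under 0.05.

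Later intervals gave the same count. For day 120 against day 60, 0 of 4 members were called by limma and 0% of all tested miRNAs were, with log2 fold changes from -0.48 for miR-200c to 0.20 for miR-429. For day 120 against day 1, 0 of 4 were called, against 3.38% of all, with changes from -0.54 for miR-200c to 0.35 for miR-200b. By limma no member had an unadjusted p under 0.05 in either comparison, where 3.14% and 22.5% of all tested miRNAs did. edgeR called 0 of 4 members and DESeq2 0 of 3 in each; at an unadjusted p under 0.05 edgeR had miR-200c for day 120 against day 1, and no other member was at that level by either tool.

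The lowest means of miR-200b, miR-200a, miR-429 and miR-200c were those of day 180, without a call. For miR-200c this held only with replicate 2 of day 1, since the other 4 day-1 libraries averaged 8.46 RPM, against 8.81 RPM on day 180. Against day 120, miR-200b measured 75.4 ± 23.4 RPM on day 180 and 217 ± 240 RPM on day 120 (SD, n = 5 each; log2 fold change -0.97, SE 0.75, limma adjusted p = 0.997). Replicate 5 of day 120 carried much of that: without it the day-120 mean was 112 ± 55.2 RPM (SD, n = 4) and the log2 fold change -0.44. Against day 60, miR-200b had a log2 fold change of -1.11 (SE 0.75, adjusted p = 0.86) and miR-200c, at 8.81 ± 2.93 RPM on day 180 and 18.5 ± 5.80 RPM on day 60, one of -1.01 (SE 0.78, adjusted p = 0.936). Without replicate 2 of day 1 the log2 fold change of miR-200c was the same with an SE of 0.39, and it ranked 10 of 414 by p (unadjusted p = 0.017 by limma, adjusted p = 0.552). Against day 1, the changes ran from -0.57 for miR-200a to -1.06 for miR-200c, and without replicate 2 of day 1 from -0.34 for miR-429 to 0.10 for miR-200c.

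For day 60 against day 1, 2 of 4 members had a log2 fold change below 0, beside 53.4% of all tested miRNAs. For day 120 against day 60 these were 3 of 4 beside 47.6%, and for day 120 against day 1 1 of 4 beside 56.3%. In all 3 comparisons of day 180, 4 of 4 members lay below 0, except that without replicate 2 of day 1 the changes against day 1 were 0.07 for miR-200b and 0.10 for miR-200c. Below 0 lay also 66.2% of all tested miRNAs for day 180 against day 120, 62.1% against day 60 and 62.6% against day 1. The comparisons share the day-180 libraries and the members vary together, so these counts are not independent of each other. The members' median log2 fold change was -0.69, -0.80 and -0.64, beside -0.15, -0.15 and -0.25 over all tested miRNAs. By limma 0 of 4 members were called in each, against 0%, 0% and 3.38% of all tested miRNAs, and 0 of 4 had an unadjusted p under 0.05, against 0.725%, 4.83% and 20.8%. edgeR called 0 of 4 members and DESeq2 0 of 3 in each. At an unadjusted p under 0.05 were miR-200c by edgeR for day 180 against day 1 and miR-200b by DESeq2 for day 180 against day 120.

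**Figure D2:**
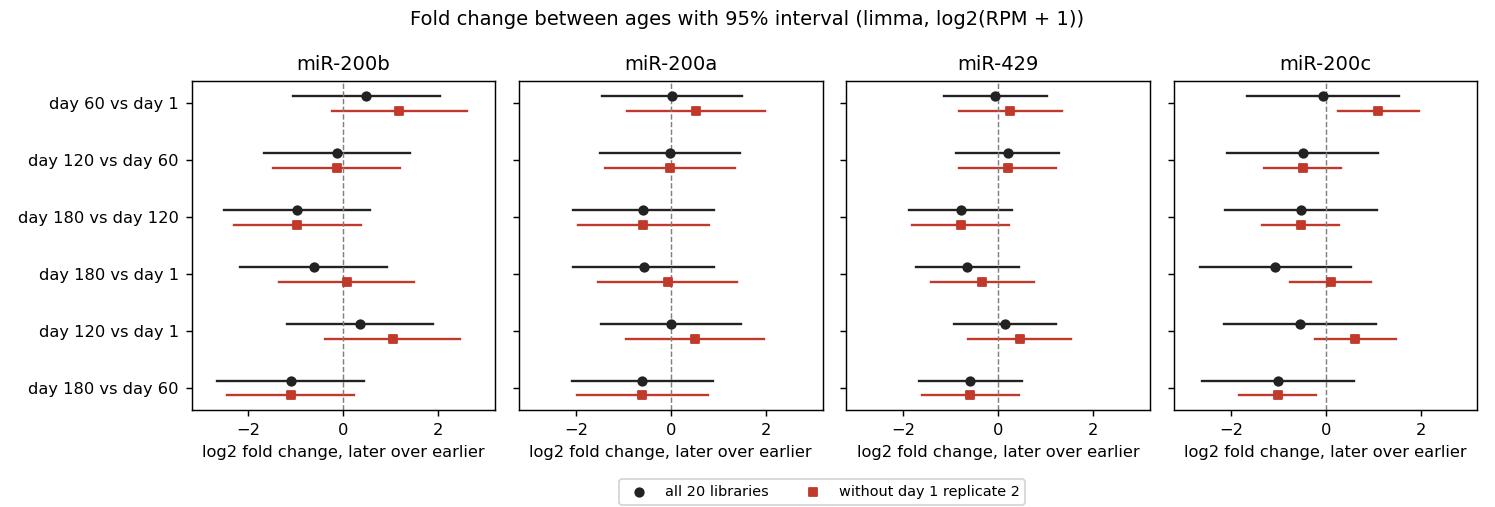
log2 fold change of the 4 tested members on the log2(RPM + 1) scale, later over earlier age, for 6 comparisons, with 95% intervals from limma. Black circles are fits of all 20 libraries, whose intervals all include 0, and red squares leave out replicate 2 of day 1, which gives miR-200c on day 60 against day 1 a value of 1.11, beside -0.05 with it.

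The spread between libraries of one age was the main feature of the family. The within-age SD of miR-200b was 1.35 log2 units, that of miR-200a 1.26 and that of miR-200c 1.39, beside a median of 0.82 over all tested miRNAs. By this measure 95.2%, 93.7% and 96.1% of the 414 tested miRNAs varied less. miR-429, whose low level compresses its spread on the log2(RPM + 1) scale, had a within-age SD of 0.88. Without replicate 2 of day 1 the SD was 1.14 for miR-200b, 1.17 for miR-200a and 0.51 for miR-200c, which then varied less than the median miRNA at 0.75.

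Members varied together from library to library. Over the 20 libraries, miR-200b and miR-200a had a Pearson correlation of 0.91 on the log2(RPM + 1) scale and a Spearman correlation of 0.81 (two-sided permutation p = 1e-05 and 4e-05, adjusted over the 10 pairs 5e-05 and 0.000167). Here 1e-05 is the smallest p that 100000 permutations can give. Leaving out the 2 libraries farthest from the median of miR-200b, replicates 2 and 4 of day 1, gave r = 0.82, and subtracting the mean of each age gave r = 0.92.

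The other pairs of that gene cluster were correlated too. miR-200b and miR-429 had r = 0.83 and rho = 0.72 (permutation p = 3e-05 and 0.00051, adjusted 1e-04 and 0.00102), with r = 0.75 without the same 2 libraries. miR-200a and miR-429 had r = 0.84 and rho = 0.80 (permutation p = 1e-05 and 5e-05, adjusted 5e-05 and 0.000167), with r = 0.80 without them. With the mean of each age subtracted, r and rho were 0.83 and 0.71 for miR-200b and miR-429 and 0.84 and 0.86 for miR-200a and miR-429. All libraries enter each correlation as shares of their own total.

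miR-200c, from the other gene cluster, was also correlated with these members. miR-200c and miR-200b had r = 0.76 and rho = 0.80 (permutation p = 4e-05 and 5e-05, adjusted 1e-04 and 0.000167), and r = 0.71 without the 2 farthest libraries. miR-200c and miR-200a had r = 0.64 and rho = 0.56 (permutation p = 0.0114 and 0.0106, adjusted 0.0114 and 0.0133), with r = 0.41 without them, so that this relation rests largely on those libraries. miR-200c and miR-429 had r = 0.61 and rho = 0.75 (permutation p = 0.00211 and 0.00027, adjusted 0.00352 and 0.000675). Without replicate 2 of day 1 and replicate 5 of day 120, the farthest for miR-429, r was 0.62. With the mean of each age subtracted, miR-200c had r = 0.76 and rho = 0.58 with miR-200b. On that scale r and rho were 0.63 and 0.40 with miR-200a and 0.59 and 0.51 with miR-429. The rank correlations of miR-200c were thus lower than before the subtraction, while r changed little. The day-1 mean of miR-200c includes replicate 2 of day 1, and the subtraction was not run without that library. Why rho was lower was not tested. With miR-141, at 1 to 8 reads, r ran from 0.58 with miR-200a to 0.68 with its cluster partner miR-200c over the 4 pairs (adjusted permutation p from 0.00312 to 0.0114) and from 0.39 to 0.51 without the 2 farthest libraries. Whether the correlations differ from each other was not tested.

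**Figure D3:**
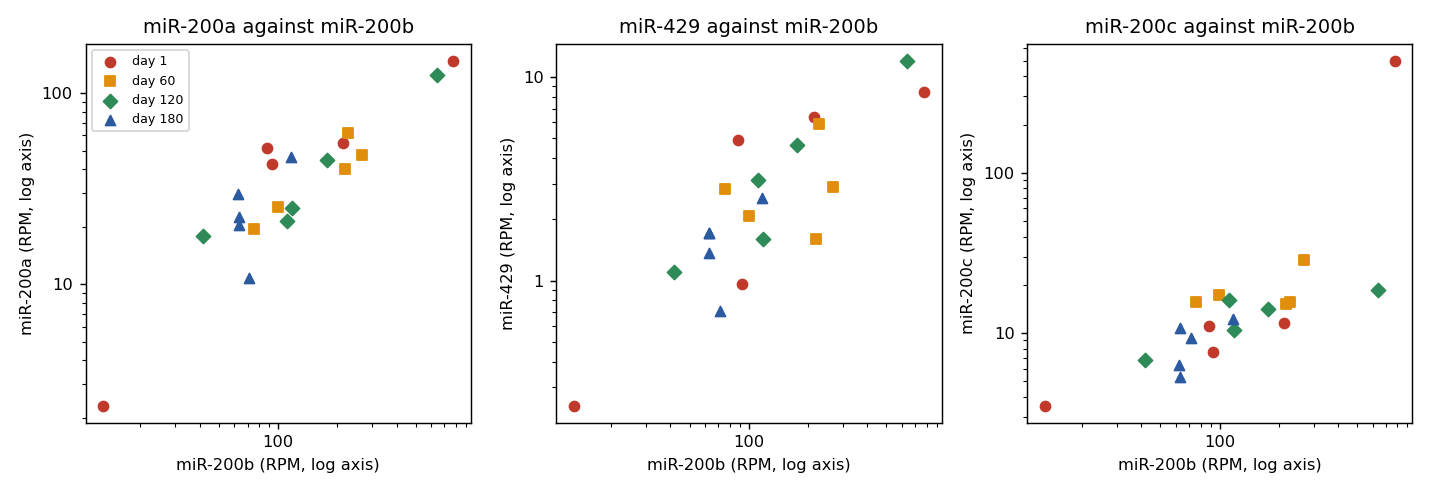
Levels of miR-200a, miR-429 and miR-200c against miR-200b in the 20 libraries (RPM, log axes on both sides), coloured by age. miR-200a follows miR-200b over the whole range (r = 0.91), while miR-200c lies between 3.53 and 28.8 RPM except in replicate 2 of day 1 at 498 RPM.

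The same few libraries stood at the ends of the family's range. In replicate 2 of day 1, miR-200b, miR-200a and miR-200c had their highest values, as did 35.5% of all tested miRNAs. The ratio of miR-200c to miR-200b was 0.64 there and between 0.0293 and 0.274 in the other 19 libraries. Replicate 5 of day 120 differed: miR-200b was at 639 RPM, miR-200a 124 RPM and miR-429 12.0 RPM, while miR-200c was at 18.7 RPM, the lowest ratio of all at 0.0293. That library held the highest value of 0.966% of the tested miRNAs. Replicate 4 of day 1, with a depth of 8207160 reads, had the lowest value of all 4 tested members and of 7.25% of the tested miRNAs.

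The miRNAs most like miR-200b were those of the miR-183 cluster. Among 353 tested miRNAs with a known name outside the family, those with the highest Spearman correlation with miR-200b over the 20 libraries were miR-182 (rho = 0.82, r = 0.89), miR-183 (0.79 and 0.88), miR-96 (0.75 and 0.81), miR-105b-5p (0.67 and 0.58) and miR-433 (0.58 and 0.54). miR-182, miR-183 and miR-96 form one gene cluster, known from sensory cells of the eye and ear and from epithelia. With the mean of each age subtracted, the order was miR-183 (rho = 0.86), miR-182 (0.80), miR-96 (0.61), miR-323b (0.53) and miR-502b-3p (0.53). These were picked as the highest of many and are a description of 20 libraries that share their scaling.

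The likeness did not rest on the library that stood apart. Without replicate 2 of day 1, miR-182 (rho = 0.79), miR-183 (0.76) and miR-96 (0.71) were again the top 3. miR-183 measured 619 RPM in replicate 2 of day 1 and 513 RPM in replicate 5 of day 120, its highest values, and miR-182 measured 357 and 655 RPM there. In replicate 4 of day 1, the lowest library for miR-200b, they measured 13.3 and 10.8 RPM, and miR-96 had no read. That was not their lowest library: in replicate 1 of day 120 miR-183 measured 8.31 and miR-182 10.5 RPM. In replicate 2 of day 180 miR-183 measured 9.31 RPM, and miR-96 had no read in either of these libraries. miR-200a had r = 0.82 with miR-183 and miR-429 had r = 0.78; miR-200c, from the other gene cluster, had r = 0.66 (rho = 0.58). Over the 12 pairs of a tested member and a miR-183 cluster member, r lay between 0.60 and 0.89, and leaving out the 2 farthest libraries of each pair it lay between 0.46 and 0.87. No p is given, since the cluster is described for its likeness in these libraries. None of the 3 was called between any ages by limma, where at most 3.86% of all tested miRNAs were in any comparison.

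**Figure D4:**
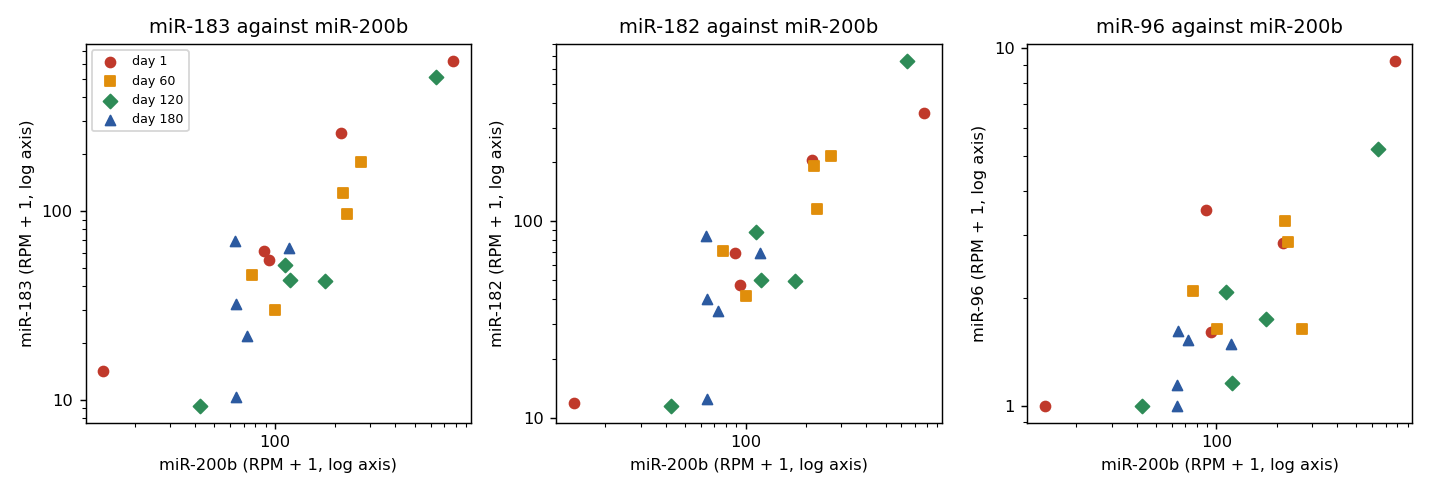
Levels of miR-183, miR-182 and miR-96 against miR-200b in the 20 libraries (RPM + 1, log axes on both sides), coloured by age. The 3 miRNAs are highest in the 2 libraries with most miR-200b (639 and 777 RPM) and low in the library with least (12.9 RPM).

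Markers of other cells were compared with the family. miR-182, miR-183 and miR-96 were the 3 measured members of the epithelium list, and their sum ran from 24.1 to 984 RPM on day 1, 70.0 to 394 RPM on day 60, 18.8 to 1172 RPM on day 120 and 20.8 to 151 RPM on day 180. These are the 3 miRNAs already described as most like miR-200b, so the sum is no further evidence on epithelium, and its part in the family's spread was not tested; miR-203, miR-205 and miR-31 were not analysed here. The endocrine marker miR-7, abundant in pituitary and hypothalamic neuroendocrine cells, did not peak in the same libraries. Its 2 rows summed to 50765 RPM in replicate 2 of day 1 and 31710 RPM in replicate 5 of day 120, against 9553 to 304627 RPM over all libraries. Rows of choroid plexus and multiciliated cells summed to 8527 and 4074 RPM in those 2 libraries and to 7009 RPM in replicate 4 of day 1, against 1514 to 11306 RPM over all.

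Of the other marker lists, none of the tested rows for neurons (9), red blood cells (3) and muscle (5) was called in any comparison by limma. Of all tested miRNAs, 0.725% were called higher and 3.14% lower on day 60 against day 1. On day 120 and on day 180 against day 1, 3.38% each were called, and between later ages 0%. Lists this short would hold few or no calls at those shares. In the choroid plexus and multiciliated list 1 of 7 tested rows fell: miR-449a-5p, known from cells with motile cilia, averaged 1.37 ± 0.794 RPM on day 60 and 19.5 ± 17.7 RPM on day 1 (SD, n = 5 each; log2 fold change -2.70, SE 0.59, limma adjusted p = 0.0112), and it was also lower on day 120 and day 180 than on day 1 (limma adjusted p = 0.015 and 0.00145). The liver miRNA miR-122 rose on day 60, at 124 to 2540 RPM, against 2.66 to 91.6 RPM on day 1 (log2 fold change 3.78, SE 0.81, limma adjusted p = 0.011). The 2540 RPM was that of replicate 4 of day 60, and the median of that age was 139 RPM. miR-122 measured 102 to 121 RPM on day 120 and 10.9 to 142 RPM on day 180. Neither age was called against day 1 (limma adjusted p = 0.0709 and 0.147). The part of miR-449a-5p and miR-122 in the family's values was not tested.

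Other miRNAs tied to puberty or GnRH were mostly not called either. In the list of GnRH and puberty miRNAs, 20 of 20 rows were tested, and for day 60 against day 1 0 were called higher and 1 lower, against 0.725% and 3.14% of all tested miRNAs. The one that fell was miR-30a-5p, of the family that in rats represses the puberty brake MKRN3, at 3505 ± 1481 RPM on day 60 and 10245 ± 5136 RPM on day 1 (SD, n = 5 each; log2 fold change -1.54, SE 0.39, limma adjusted p = 0.0249). Its log2 fold change without replicate 2 of day 1 was -1.63 (limma adjusted p = 0.0352). None of the 20 was called in the other 5 comparisons, against 0% to 3.38% of all tested miRNAs, or by the F test, against 1.93%. miR-155-5p, partner of miR-200 in mouse GnRH neurons, measured 154 ± 49.6 RPM on day 1 (SD, n = 5 at each age), 205 ± 96.3 at 60 days, 131 ± 43.8 at 120 days and 157 ± 64.4 RPM at 180 days, and was not called (limma F test adjusted p = 0.825). miR-30b-5p measured 364 ± 176, 704 ± 587, 986 ± 388 and 723 ± 372 RPM at the same ages (limma F test adjusted p = 0.382).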

How the data were processed

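Small RNA was sequenced from goat hypothalamus at 4 ages with 5 libraries each. Per the labels' protocols, RNA was taken with Trizol and a NEBNext kit for small RNA gave the libraries. Bowtie is named per the submitters' processing notes; for its version, the genome build, the miRNA catalogue and the counter, the entry is: not given in the sources used here. Per the file headers, the authors deposited 1 table in RPM, under column names that say TPM. Its values were whole multiples of 1 step per library (100% of those below 1000 reads, within 0.1 read), which returned whole reads and depth. The deposited table also has a column of summed signal over the 20 libraries, not used here.

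limma 3.58.1 (R 4.3.3; eBayes with trend, two-sided) was fitted to log2(RPM + 1) of the 414 miRNAs with 1 RPM in at least 5 libraries, with 4 age means and no covariate, and adjusted by Benjamini-Hochberg at 0.05. edgeR 4.0.16 and DESeq2 1.42.0 on the recovered reads were alternatives. These tools were tried on simulated reads first, where only day 180 against day 1 was evaluated. The simulation used the same dispersion for all miRNAs and no outlying library, so it does not give the power for these members. The F test and the correlations were not tried in this way. The fold change scale understates changes of scarce miRNAs such as miR-429. Floors cover only the error of counting, since reads copied by PCR are no independent molecules. Correlations used log2(RPM + 1) and 100000 permutations, which mixed libraries of all ages. All rows of the family are named; the 5 miRNAs with the highest Spearman correlation with the most abundant member, before and after age means are subtracted, are named for likeness. Of the other lists, rows past the threshold are named, with miR-155 and miR-30b for their known roles. The members and lists were chosen with earlier results of these data known. The labels give no batch.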

Additional observations from a re-analysis of the deposited data

Results flagged for a closer look

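Within each age of 5 libraries, the highest or lowest value was compared with its neighbour by Dixon's criterion, for 5 members at 4 ages. Of these 20 groups 7 held a value far from the others, in each case the highest of its age. Chance flags about 1 in 20 where values are normally distributed. The criterion was applied to RPM without logs, which are skewed upward here, so how many chance would flag is not known. The members share libraries, so the 7 are not independent. In replicate 2 of day 1, miR-200b at 777 RPM and miR-200c at 498 RPM lay far above the other newborns. In replicate 5 of day 120, miR-200b at 639 RPM and miR-200a at 124 RPM did so among the libraries of that age. On day 60, miR-200c at 28.8 RPM in replicate 4 and miR-141 at 1.24 RPM in replicate 5, which is 8 reads, stood above the rest. On day 180, miR-200b at 117 RPM in replicate 4 lay above 4 libraries at 62.5 to 71.5 RPM.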

How the results depend on the processing

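Under all alternatives run (other pseudocounts, filters and scalings, edgeR and DESeq2 on recovered reads, and each library left out in turn), 0 tested members were called in each comparison. Of 738 recomputed log2 fold changes 47 turned sign, and of the 732 with an adjusted p 0 were under 0.05; the other 6 are those of miR-200c by DESeq2, which gave it no p. The smallest adjusted p was 0.0561, for miR-200c on day 180 against day 1 by edgeR (log2 fold change -2.64). That fit includes replicate 2 of day 1, without which limma gave a log2 fold change of 0.10 (limma adjusted p = 0.909). Over all 414 miRNAs limma called 16, 14 and 14 on day 60, 120 and 180 against day 1 and 8 by the F test, where edgeR called 57, 43, 22 and 39, DESeq2 86, 74, 61 and 90, and limma without replicate 2 of day 1 6, 8, 6 and 5; the other comparisons gave 0 by each. Median-of-ratios and quantile scaling shifted the median log2 fold change of all tested miRNAs by over 0.1 for day 180, to 0.0107 and 0.0033 against day 120, -0.0283 and 0.014 against day 60 and -0.0334 and -0.0029 against day 1. The shift was also over 0.1 for day 60 against day 1 under median-of-ratios scaling (0.0705, beside -0.0379) and for day 120 against day 1 under quantile scaling (-0.00265, beside -0.121). All changes of the 4 members on day 180 against day 120 and day 60 kept their sign under all alternatives run.

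The changes that turned sign were mostly near 0, and the cause was not tested. On day 60 against day 1, miR-200c was 0.0143, 0.0689 and 0.232 and miR-429 0.188, 0.083 and 0.259 with a pseudocount of 0.1, median-of-ratios scaling and quantile scaling. miR-200a was -0.12 with a pseudocount of 5, -0.241 by edgeR and -0.219 by DESeq2. On day 120 against day 60, miR-200a was 0.000491, 0.29 and 0.247 under the same alternatives, and miR-200b 0.252 by edgeR and 0.211 by DESeq2. On day 120 against day 1, miR-200a was -0.12 with a pseudocount of 5.

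With 1 library left out, day 60 against day 1 ran from -0.274 to 1.18 for miR-200b, -0.84 to 0.53 for miR-200a, -0.584 to 1.11 for miR-200c and -0.478 to 0.254 for miR-429. Day 120 against day 60 ran from -0.672 to 0.306 for miR-200b, -0.462 to 0.218 for miR-200a and -0.189 to 0.468 for miR-429. Day 180 against day 120 ran from -1.41 to -0.438 for miR-200b, -0.819 to -0.135 for miR-200a, -0.72 to -0.379 for miR-200c and -1.06 to -0.401 for miR-429. Day 180 against day 1 ran from -1.38 to 0.0684 for miR-200b and -1.59 to 0.104 for miR-200c. Day 120 against day 1 ran from -0.411 to 1.04 for miR-200b, -0.856 to 0.513 for miR-200a, -1.07 to 0.627 for miR-200c and -0.277 to 0.455 for miR-429. Against day 1, the ends of these ranges came from leaving out its replicate 4 or 2.

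Replicate numbers recur at each age, but deviations of same-numbered samples correlated from -0.714 to 0.535, so they were not treated as pairs; with a replicate block 0 members were called. miR-429 has no value under the filter of 10 RPM, which tested 3 members. Depth limits miR-141, with at most 3 reads in 15 of 20 libraries, and miR-429 in 1 library.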
